A study of Mus musculus with 38 samples.

Results

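The genes of the Notch receptors Notch1, Notch2 and Notch3 and of Rbpj, the DNA-binding partner of the cleaved receptors, were read in the peak lists of a ChIP-seq study of T-lineage entry. Every peak of every list was kept whose centre lay from 50 kb before to 50 kb after the mm10 gene body of a member. The members were 4 of 21938 protein-coding genes, and their windows held 429 of 359759 peaks. The rule for a peak used gene positions alone, while the 4 genes themselves were chosen with earlier results of these data known.

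All samples came from the mouse line Cas9-LP, made of cultured lymphoid progenitors (LP) and established from fetal liver progenitors that lacked Ebf1 and carried Cas9 knocked in at Rosa26. Every group therefore shares the Ebf1 deficiency and the Cas9 allele, and the data describe a cultured line and not freshly isolated progenitors. LP cells were kept on OP9 stroma with SCF, Flt3L and IL-7 and received no Notch ligand. Phase 1 and Phase 2 cells, an early and a later stage, were cultured on OP9-DLL4 stroma, which displays the Notch ligand DLL4. RUNX1, CTCF, the Mediator subunit Med12 and the acetyltransferase p300 were profiled in LP and Phase 1, and Notch1-IC, the released intracellular part of Notch1, in LP, Phase 1 and Phase 2. Guide RNAs were delivered by a retrovirus marked with hNGFR. RUNX1 was profiled in LP cells with a control guide (sgCont) or guides against Ctcf (sgCTCF), and in Phase 1 cells with sgCont or sgMed12, while Med12 was profiled in Phase 1 cells with sgCont or sgCbfb. Cbfb encodes the partner that RUNX proteins need for stable DNA binding.

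Of the 38 samples in 19 groups of 2 replicates, 34 were ChIP samples, and each of their 17 groups was represented by 1 list that combined its replicates. No spread between replicates was left in the lists, so no test between conditions was made. Shares are given with 95% Wilson intervals that cover counting error only, beside the share over the entire list. The lists differed in length, from 152 Phase 1 Notch1-IC peaks to 49116 Phase 1 p300 peaks, and the read number of each library was not in them, the study's methods giving only an approximate depth for all samples. For a peak missing from a short list, shallow sequencing and an unbound site cannot be told apart. The deposited value of a peak was a normalized peak score with a minimum of 15. How far scores compare between lists is not given in the sources used here, so they were read within 1 list. The exception is a setting that applied the same minimum score of 30 to every compared list. Peak lists carry no expression, so the labelled cell type could not be checked against marker genes, nor the loss of the targeted proteins against their levels.

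Notch receptors are membrane proteins that are cut when a ligand on a neighbouring cell binds them. The freed intracellular domain enters the nucleus and joins RBPJ, and with a Mastermind protein and p300 it activates genes that RBPJ marks. In the thymus, Notch1 signaling starts and maintains the T-cell program, Notch3 is expressed in immature thymocytes and is a known Notch target, and Notch2 has well-described roles in B cells and myeloid cells. RUNX proteins act in the same progenitors, CTCF organizes chromatin loops, and Mediator links bound factors to RNA polymerase.

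Notch1-IC was found at 5 sites in the windows, where a site is a run of overlapping peaks from any list. They lay in the windows of Notch1, Notch3 and Rbpj, and the Notch2 window held none. Their sequences are shown because they are the places at a receptor gene or at Rbpj where a Notch1-IC peak was listed. Each is the 200 bases around the centre of the Notch1-IC peak in GRCm38 (mm10), read 5′ to 3′ on the strand of the gene, with capitals for matches on either strand to GTGGGAA, an RBPJ string, or to TGTGGTT or TGCGGTT, RUNX strings. Distances in kb run from the start of the principal transcript to the centre of the peak, or to the median over a site's peaks, and are negative upstream.
Notch1, -9.71 kb, chr2:26513430-26513629: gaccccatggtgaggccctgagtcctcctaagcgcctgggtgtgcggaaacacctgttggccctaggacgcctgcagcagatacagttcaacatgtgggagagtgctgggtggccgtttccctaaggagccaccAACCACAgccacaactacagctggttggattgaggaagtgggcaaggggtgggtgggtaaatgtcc
Notch1, intron 1, 1.41 kb, chr2:26502317-26502516: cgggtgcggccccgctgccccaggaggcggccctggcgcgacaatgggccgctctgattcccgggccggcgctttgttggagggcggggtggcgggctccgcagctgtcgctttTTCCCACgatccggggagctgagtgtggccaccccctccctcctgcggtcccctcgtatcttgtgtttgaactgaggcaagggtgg
Notch1, intron 4, 20.33 kb, chr2:26483397-26483596: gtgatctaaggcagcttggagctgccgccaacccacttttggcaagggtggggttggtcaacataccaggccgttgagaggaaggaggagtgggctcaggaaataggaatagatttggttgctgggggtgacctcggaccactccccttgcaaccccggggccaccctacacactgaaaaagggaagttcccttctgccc
Notch3, intron 1, 2.44 kb, chr17:32164310-32164509: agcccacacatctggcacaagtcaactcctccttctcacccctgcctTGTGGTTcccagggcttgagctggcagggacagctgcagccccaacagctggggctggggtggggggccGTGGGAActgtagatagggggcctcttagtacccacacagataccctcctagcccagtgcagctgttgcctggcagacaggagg
Rbpj, -1.14 kb, chr5:53589229-53589428: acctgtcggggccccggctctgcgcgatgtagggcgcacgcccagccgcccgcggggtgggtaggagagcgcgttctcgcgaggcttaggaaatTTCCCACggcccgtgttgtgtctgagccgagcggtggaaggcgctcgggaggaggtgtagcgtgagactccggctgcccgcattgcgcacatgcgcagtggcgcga
The RBPJ string occurred in the windows of Notch1 intron 1, Notch3 intron 1 and Rbpj, which are 3 of the 4 Phase 1 Notch1-IC peaks. It occurred in 36.2% of all Phase 1 Notch1-IC windows, 26.2% of Phase 2 windows and 4.42% of LP windows. In the LP lists of RUNX1 and p300 it occurred in 4.23% and 4.19% of windows. A RUNX string was present in the Notch1 site at -9.71 kb and in the Notch3 site, and in 25.7% of Phase 1 Notch1-IC windows. The intron 4 site of Notch1, which had a Notch1-IC peak in LP alone, held none of these letters. No marked match overlapped another.

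The gene bodies were chr2:26457903-26516663 for Notch1 (minus strand), chr3:98013527-98150361 for Notch2 (plus), chr17:32120820-32166852 for Notch3 (minus) and chr5:53466152-53657362 for Rbpj (plus). With 50 kb added to each side, the windows spanned 158.8, 236.8, 146 and 291.2 kb. They held 126, 116, 101 and 86 peaks, which merged into 27, 25, 24 and 27 sites. The windows also covered neighbours, among them Sec16a and Inpp5e beside Notch1, Adam30 beside Notch2, Ephx3 beside Notch3, and Cckar beside Rbpj, and a peak was not assigned to a gene by its place in a window. The peaks nearest to a window edge on the inside were 0.249 kb from it at Notch1 (Phase 1 CTCF, score 368) and 0.343 kb at Notch2 (LP Med12, score 18.0). On the outside the nearest were 3.13 kb away at Notch3 (LP CTCF, score 21.4) and 3.6 kb away at Notch1 (Phase 1 CTCF, score 190).

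**Figure D1:**
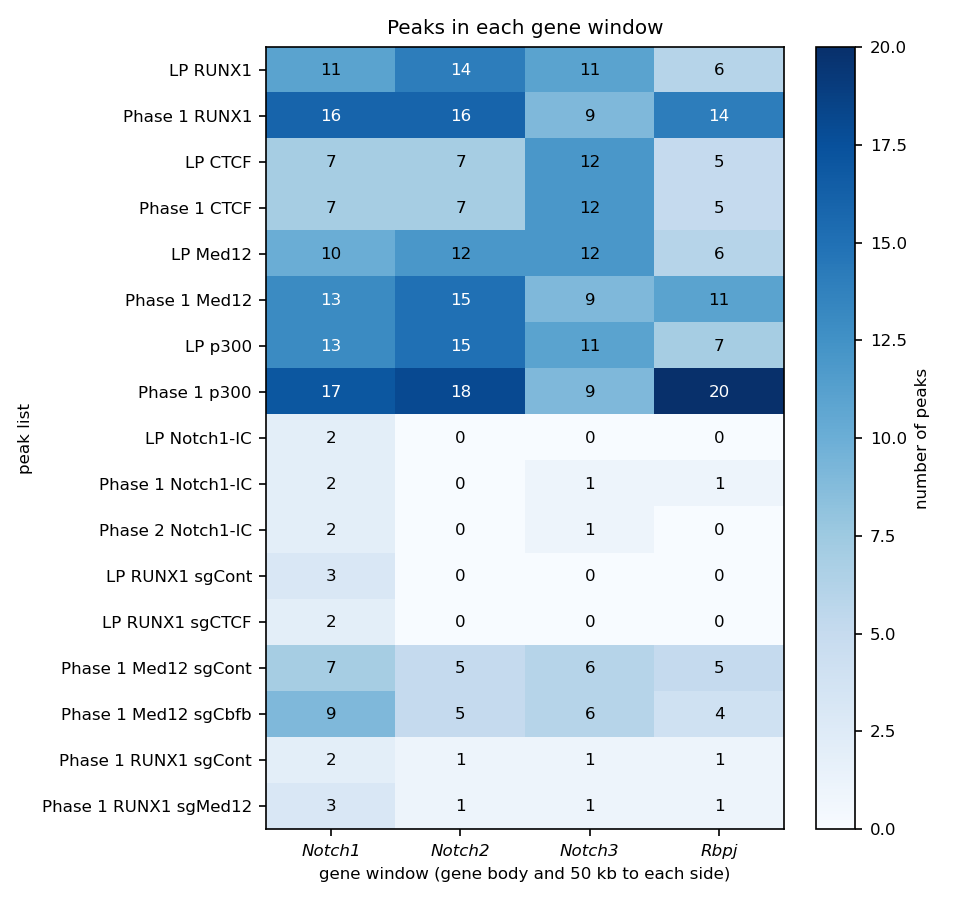
Number of peaks of each of the 17 lists (rows) in the window of each gene (columns, gene body and 50 kb to each side); darker blue stands for more peaks. Phase 1 RUNX1 counts were 16, 16, 9 and 14 for Notch1, Notch2, Notch3 and Rbpj, and the Notch2 column is 0 in all 3 Notch1-IC lists.

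Phase 1 RUNX1 counts were high for Notch1 and Notch2 when set beside all protein-coding genes, whose median was 4 Phase 1 RUNX1 peaks and 5 CTCF peaks per window. Their CTCF counts were not, with 7 LP peaks each, and 33.3% of genes held as many. Notch1 and Notch2 each held 16 Phase 1 RUNX1 peaks, and 1.12% of genes held as many. Per 100 kb, Notch1 held 10.1 and Notch2 6.76, and 2.67% and 13.5% of genes were as dense. Notch3 stood apart in CTCF, with 12 peaks in each stage against 7, 7 and 5 for Notch1, Notch2 and Rbpj, and 4.82% of genes held as many LP CTCF peaks. Rbpj had 20 Phase 1 p300 peaks, the highest of the 4, but its window is the longest, and 18.0% of genes were as dense. A Notch1-IC peak of Phase 1 or Phase 2 lay in 3 of the 4 windows and in 3.57% of all 21938 windows. An LP Notch1-IC peak lay in 1 of the 4 and in 11.9% of all.

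Notch1, the receptor that drives T-lineage entry, had its most occupied site at -9.71 kb (chr2:26513320-26513893). The authors' annotation calls it intergenic, while GENCODE places it in intron 1 of a longer Notch1 transcript. Of the 17 lists, 16 had a peak there, LP CTCF being the exception. RUNX1 scored 505 in LP, at rank 30 of 31995, and 582 in Phase 1, at rank 39 of 38399. The p300 peak ranked 7 of 36182 in LP and 21 of 49116 in Phase 1, and the Med12 peak ranked 21 of 30020 and 14 of 39132. Notch1-IC scored 114 in LP at rank 5 of 1585, 27.4 in Phase 1 at rank 29 of 152 and 119 in Phase 2 at rank 13 of 352. The site was thus near the top of the lists in both stages, and a Notch1-IC peak was listed there in LP cells, which received no ligand. Whether the LP Notch1-IC peaks mark Notch1-IC itself was not tested. A CTCF peak was listed in Phase 1 alone, with a low score of 37.7 at rank 31304 of 44793.

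The second Notch1-IC site, in intron 1 (chr2:26502155-26502551), was occupied only in lists of cells on OP9-DLL4. RUNX1 scored 98.8, Med12 116 and p300 115 in Phase 1, and none of the LP lists had a peak there. Notch1-IC scored 20.5 in Phase 1 and 26.2 in Phase 2. This was the highest-scored Phase 1-specific RUNX1 peak of the Notch1 window, where a stage-specific peak is one that no peak of the same factor in the other stage overlapped by at least 1 bp. At the third site, in intron 4 (chr2:26483312-26483763), a Notch1-IC peak was listed in LP alone, with a score of 17.7 at rank 1072 of 1585. The Phase 1 and Phase 2 lists held only 152 and 352 peaks. List length and a difference between stages thus cannot be told apart for this peak. A CTCF peak that scored 24.2 was also listed at the site in LP alone. RUNX1 was shared there, with scores of 110 in LP and 93.4 in Phase 1, and so were Med12 at 154 and 121 and p300 at 198 and 180. The 3 sites thus differed in the lists that held a Notch1-IC peak, although RUNX1 overlapped Notch1-IC at each. RUNX1 overlapped 4 of 4 Phase 1 Notch1-IC peaks of the windows, where 85.5% of the entire list did, and 2 of 2 LP peaks, where 89.2% did.

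At the principal start of Notch1, RUNX1 scored 90.1 in LP and 96.6 in Phase 1, Med12 118 and 88.4, and CTCF 42.7 and 43.6, while p300 was listed in LP alone at 98.8. Of the RUNX1 peaks in the Notch1 window, 3 of 11 in LP were LP-specific (27.3%, interval 9.75 to 56.6) and 8 of 16 in Phase 1 were Phase 1-specific (50%, interval 28.0 to 72.0). Over the entire lists 16.8% and 30.7% were. The 3 LP-specific peaks scored 49.4 at 44.81 kb, over the untranslated part of the last exon, 17.5 at -39.61 kb and 15.5 at 31.32 kb, and none overlapped CTCF. The 8 Phase 1-specific peaks scored from 21.2 to 98.8, and 4 of them had the RBPJ string in their 200 bases (at 46.1, 9.22, 1.49 and -22.1 kb). The string occurred in 7.05% of all Phase 1-specific RUNX1 windows. The Notch1 window also held 2 CTCF peaks of 7 that were LP-specific (24.2 in intron 4 and 92.5 at 93.55 kb, near the end of Sec16a) and 2 of 7 that were Phase 1-specific (37.7 and 23.5), where 9.55% and 8.35% of the entire lists were. The shared CTCF peak at the start scored 42.7 in LP, and the other 4 shared peaks scored from 201 to 383, above all of the stage-specific peaks.

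**Figure D2:**
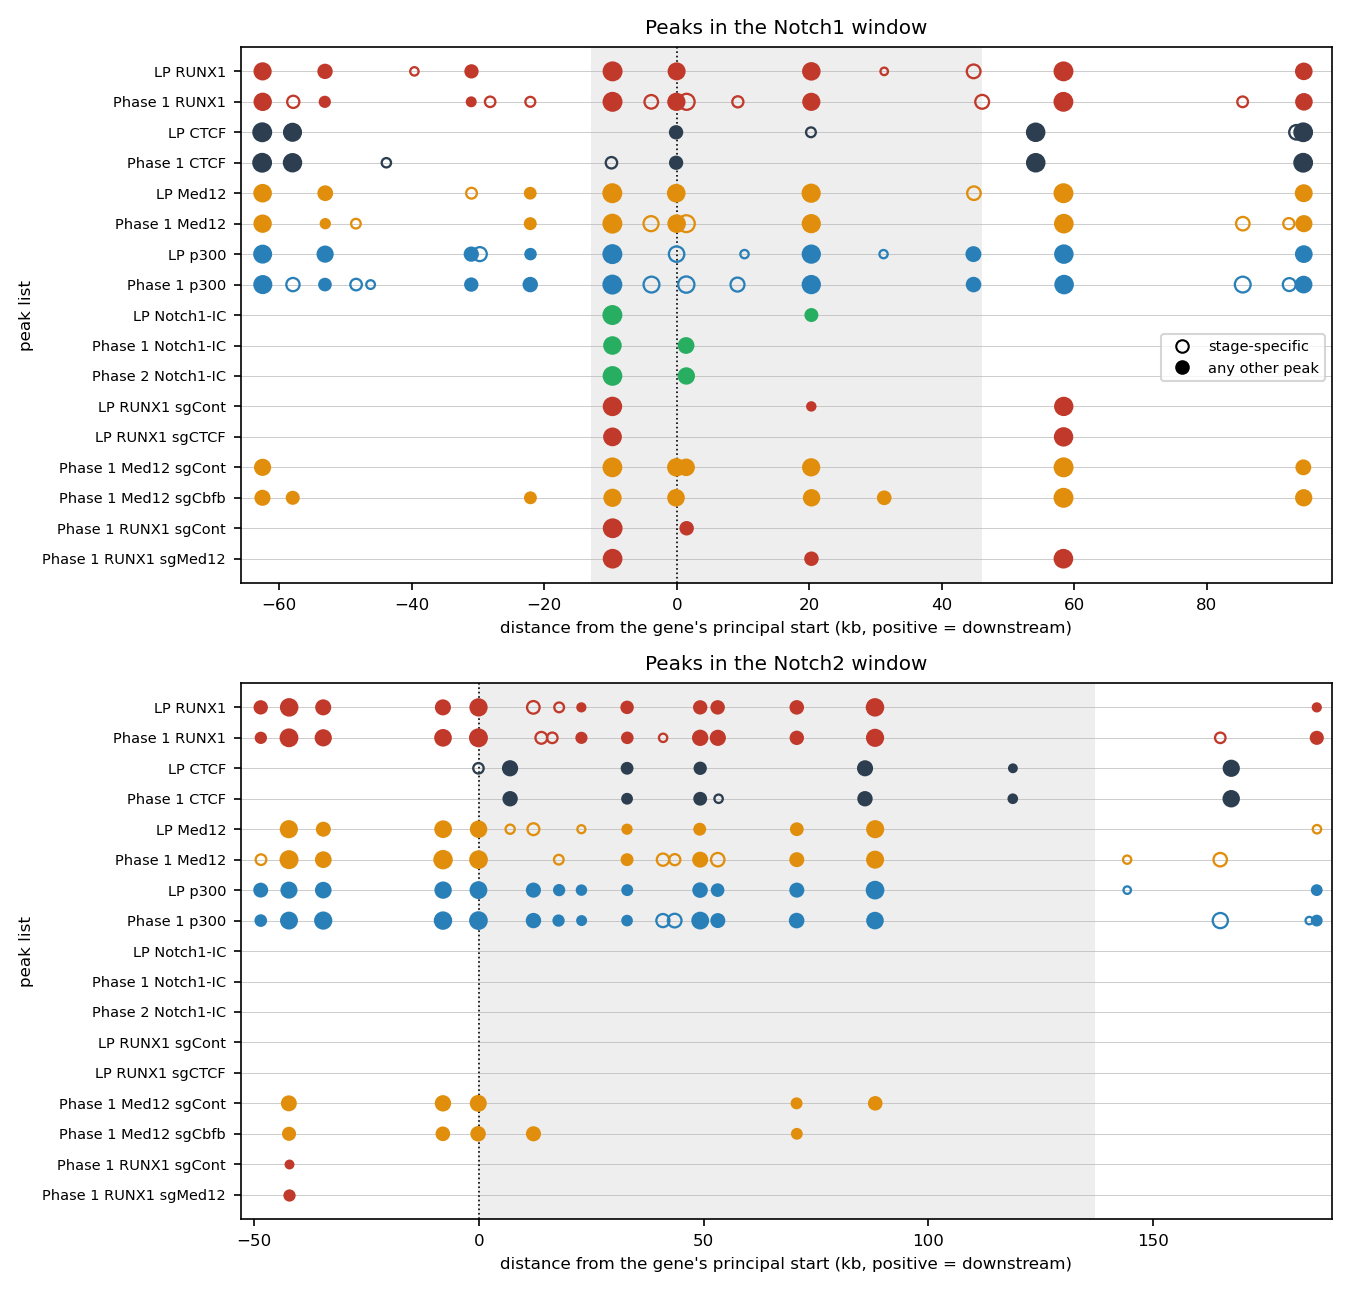
Position of each peak (x axis, kb from the principal start, dotted line; grey, gene body) in each of the 17 lists (y axis) for Notch1 (top) and Notch2 (bottom). Colour marks the factor, a larger circle a higher score within its list, and an open circle a stage-specific peak. At Notch1 the 3 Notch1-IC lists mark 3 sites, and at Notch2 they are empty.

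Notch2 had as many Phase 1 RUNX1 peaks as Notch1, and none of the 3 Notch1-IC lists had a peak in its window. LP-specific RUNX1 peaks were 2 of 14 (14.3%, interval 4.01 to 39.9) and Phase 1-specific peaks 4 of 16 (25%, interval 10.2 to 49.5), close to the 16.8% and 30.7% of the entire lists. The LP-specific peaks lay in intron 1, at 12.12 kb (score 37.8) and 17.87 kb (21.8). The Phase 1-specific peaks lay at 13.9, 16.34, 40.99 and 164.97 kb, and their scores of 29.6, 23.6, 16.9 and 23.3 were all under 30. The highest-scored shared peaks were at the start, with RUNX1 at 98.2 in LP and 131 in Phase 1, at -42.24 kb with 109 and 125, and in intron 9 with 107 and 93.2. The start also carried a CTCF peak in LP alone (28.0), and a Phase 1-specific CTCF peak (19.6) lay at 53.34 kb in intron 2.

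Notch3, a receptor whose gene is itself a target of Notch signaling, held its Notch1-IC site in intron 1 (chr17:32164172-32164641), and 12 lists had a peak there. RUNX1 ranked 8118 of 31995 in LP (score 89.9) and 3023 of 38399 in Phase 1 (176). Med12 ranked 8979 of 30020 in LP and 1106 of 39132 in Phase 1, and p300 6129 of 36182 and 2025 of 49116. Notch1-IC scored 28.4 in Phase 1 at rank 26 of 152 and 81.5 in Phase 2 at rank 24 of 352, and LP had none. RUNX1, Med12 and p300 were thus listed at the site in both stages, and Notch1-IC in the lists with a ligand alone. Ranks come from single lists of different length, so their difference between stages was not tested. Within 1 kb of the start itself the only peak was of Med12 in LP (44.9, at 0.72 kb).

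The 12 CTCF peaks of Notch3 lay at the same 12 sites in LP and Phase 1. Of these, 5 were annotated as SINE B2 repeats (41.7%, interval 19.3 to 68.0), where 25.2% of the entire LP list and 25.4% of the Phase 1 list were. LP-specific RUNX1 peaks were 4 of 11 (36.4%, interval 15.2 to 64.6), and all 4 overlapped LP CTCF, where 36.8% of LP-specific RUNX1 peaks in the list did. All 4 overlapped Phase 1 CTCF as well, where 35.1% of the list did. Across the other windows 0 of 3 did at Notch1 and 0 of 2 at Notch2, and Rbpj had no LP-specific RUNX1 peak. The 4 also overlapped LP Med12 and LP p300, where 61.9% and 76% of the list did. Of the shared RUNX1 peaks at Notch3, 0 of 7 overlapped LP CTCF (interval 0 to 35.4), and the interval includes the 20.5% of all shared peaks that did. An LP-specific RUNX1 peak with LP CTCF lay in 22.9% of all gene windows, and 0.273% of windows held 4 or more. These counts depend on the window. Over the 4 genes, 4 of 9 LP-specific RUNX1 peaks overlapped LP CTCF. With 25 kb to each side 2 of 6 did, and in the gene bodies alone 1 of 5. At Notch3 the site in coding exon 24 lay within the gene body, and the others lay past its end. The CTCF windows are shown for the 3 sites whose CTCF peak ranked highest, on the strand of Notch3, with capitals for a match to the CTCF consensus.
Notch3, 93.33 kb, chr17:32073420-32073619: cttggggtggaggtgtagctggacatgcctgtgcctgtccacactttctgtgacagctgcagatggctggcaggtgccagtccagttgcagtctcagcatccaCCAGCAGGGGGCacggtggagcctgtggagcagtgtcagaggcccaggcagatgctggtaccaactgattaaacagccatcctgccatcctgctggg
Notch3, 91.52 kb, chr17:32075235-32075434: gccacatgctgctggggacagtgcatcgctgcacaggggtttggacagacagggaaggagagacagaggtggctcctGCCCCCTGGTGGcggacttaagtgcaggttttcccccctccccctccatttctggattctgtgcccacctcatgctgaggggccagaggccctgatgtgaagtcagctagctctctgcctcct
Notch3, coding exon 24, chr17:32143246-32143445: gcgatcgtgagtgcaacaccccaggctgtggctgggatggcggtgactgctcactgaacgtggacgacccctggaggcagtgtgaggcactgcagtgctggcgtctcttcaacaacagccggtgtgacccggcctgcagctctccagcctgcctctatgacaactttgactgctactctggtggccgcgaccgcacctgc
The consensus matched in the windows at 93.33 and 91.52 kb and not in the exon, whose CTCF peak nevertheless ranked 303 of 45388 in LP and 1608 of 44793 in Phase 1. Nor did it match in the window of the remaining downstream site, at 48.08 kb, which is not shown. The consensus matched in 16.6% of all LP CTCF windows, in 8.22% of LP-specific RUNX1 windows and in 0.951% of shared RUNX1 windows. CTCF scored 246 and 255 at 93.39 kb in LP and Phase 1, 238 and 263 at 91.48 kb, 82.1 and 32.9 at 48.08 kb and 375 and 312 in the exon. RUNX1 in LP scored 36.7, 41.2, 71.7 and 53.7 at these sites. Loss of the RUNX1 peak between lists was thus not accompanied by loss of the CTCF peak at any of the 4. Of the 9 Phase 1 RUNX1 peaks, 2 were Phase 1-specific (22.2%, interval 6.32 to 54.7), where 30.7% of the list was, the higher-scored at 55.69 kb (79.4). With a score of at least 30 in both lists, 5 of 9 were (55.6%, interval 26.7 to 81.1), where 24.6% of the list was. That cut also removed LP peaks, since 3 of the 7 shared LP RUNX1 peaks of Notch3 scored under 30. A Phase 1 peak counted as specific under the cut can thus still have a listed LP peak. The LP-specific share of Med12 was 6 of 12 (50%, interval 25.4 to 74.6), where 19.5% of the list was.

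**Figure D3:**
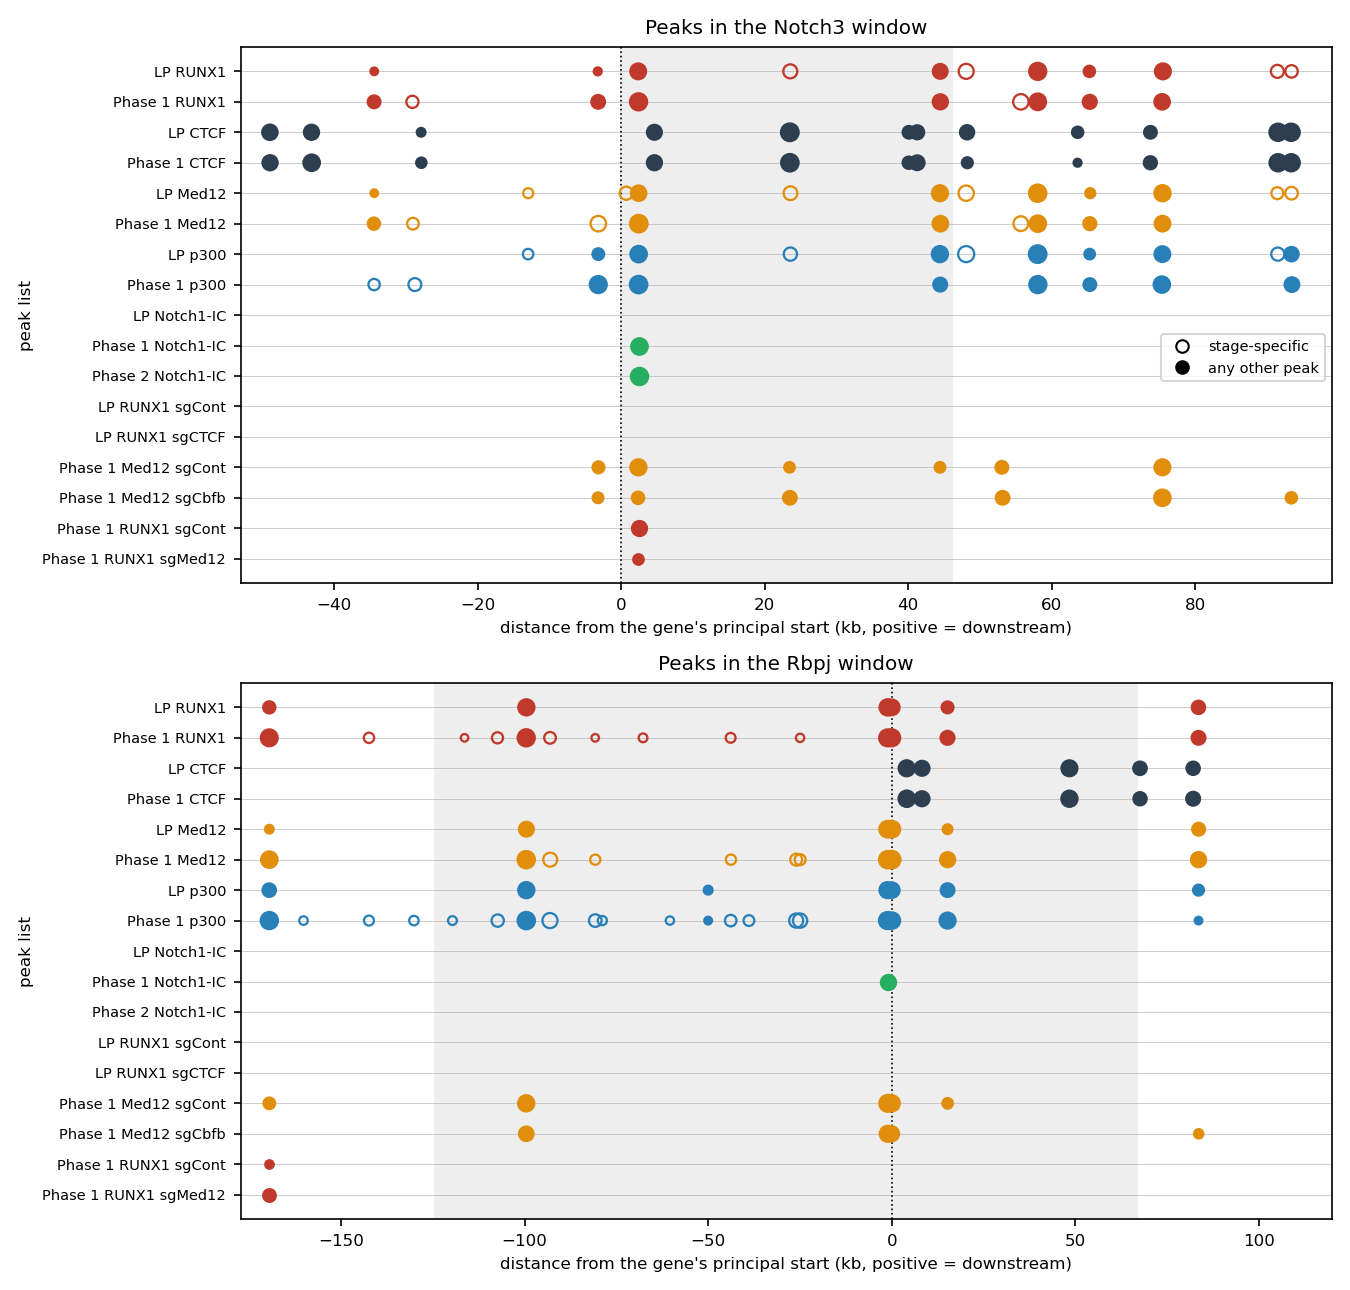
Position of each peak (x axis, kb from the principal start, dotted line; grey, gene body) in each of the 17 lists (y axis) for Notch3 (top) and Rbpj (bottom), with colour, size and open circles as in the maps of Notch1 and Notch2. The 4 open LP RUNX1 circles of Notch3 sit over CTCF circles in both stages, and the 8 open Phase 1 RUNX1 circles of Rbpj lie before the start.

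Rbpj, which encodes the DNA-binding partner of all Notch intracellular domains, had stage-specific peaks in Phase 1. None of its 6 LP RUNX1, 6 LP Med12 or 7 LP p300 peaks was LP-specific, but the upper limits of 39.0%, 39.0% and 35.4% include the 16.8%, 19.5% and 20.7% of the entire lists. In Phase 1, 8 of 14 RUNX1 peaks were Phase 1-specific (57.1%, interval 32.6 to 78.6), and so were 13 of 20 p300 peaks (65%, interval 43.3 to 81.9) and 5 of 11 Med12 peaks (45.5%, interval 21.3 to 72.0), where 41.6% of the p300 list and 38.2% of the Med12 list were. With the p300 lists at equal length, 2 of 7 LP p300 peaks were LP-specific. These RUNX1 peaks ran from -142.36 to -24.96 kb, and all but the most distant lay in intron 1 of longer Rbpj transcripts. Their scores were low, from 15.4 to 29.0 with a median of 19.4, against a median of 44.0 over the Phase 1 RUNX1 list. With a score of at least 30 in both lists, 0 of 6 RUNX1 peaks at Rbpj were Phase 1-specific, and 5 of 10 p300 peaks were. With the longer RUNX1 list cut to the length of the shorter, 4 of 10 were.

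The shared sites of Rbpj carried the higher scores. At the Notch1-IC site at -1.12 kb (chr5:53589134-53589539), RUNX1 scored 110 in LP and 152 in Phase 1. Med12 scored 122 and 155 there, and p300 119 and 174. Notch1-IC was listed in Phase 1 alone, with a score of 22.6 at rank 51 of 152. The authors' annotation does not call this Notch1-IC peak a promoter peak. At the start, RUNX1 scored 82.8 and 142 and Med12 129 and 194. The most distant site, at -169.5 kb, had RUNX1 at rank 20375 of 31995 in LP (34.2) and 4379 of 38399 in Phase 1 (146), and its p300 peak ranked 18483 of 36182 and 3419 of 49116. All 5 CTCF peaks were shared and lay from 4.08 to 82.08 kb, and none overlapped a RUNX1 peak.

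**Figure D4:**
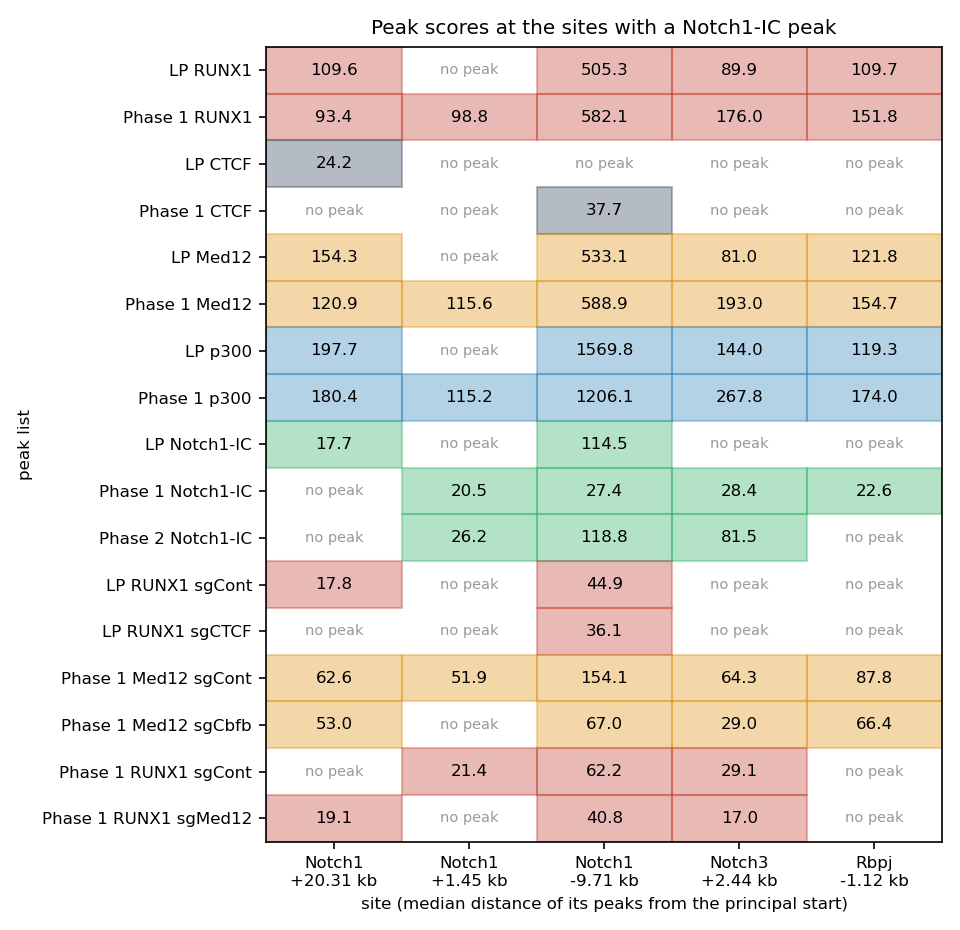
Peak score in each of the 17 lists (rows) at the 5 sites with a Notch1-IC peak (columns, with the median distance of their peaks from the principal start); coloured cells have a peak, with its score, which is comparable only within a row. The Notch1 site at -9.71 kb has a peak in 16 lists, and the site at 1.45 kb in none of the LP lists.

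Most RUNX1 peaks overlapped Med12 and p300. Of the 42 LP RUNX1 peaks of the 4 windows, 36 overlapped LP Med12 (85.7%, interval 72.2 to 93.3), where 84.7% of the list did. LP p300 was overlapped by 40 (95.2%, interval 84.2 to 98.7), where 90.8% of the list did. Of the 55 Phase 1 peaks, 42 overlapped Phase 1 Med12 (76.4%, interval 63.7 to 85.6), where 86% of the list did. Phase 1 p300 was overlapped by 46 (83.6%, interval 71.7 to 91.1), where 87.8% of the list did. The interval for Phase 1 Med12 lay just below the list share, and the others included it.

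Across the 4 windows together, 9 of 42 LP RUNX1 peaks (21.4%, interval 11.7 to 35.9) and 22 of 55 Phase 1 RUNX1 peaks (40%, interval 28.1 to 53.2) were stage-specific. Both intervals include the shares of the entire lists. This changed with the setting. With a score of at least 30 the LP share was 27.3% (interval 15.1 to 44.2), where 13.9% of the list was. The Phase 1 share at that score was 27.3% (interval 15.1 to 44.2), where 24.6% of the list was. With lists of equal length the Phase 1 share was 34.7% (interval 22.9 to 48.7), where 22.3% of the list was. The LP share was then 23.8% (interval 13.5 to 38.5), where 22.3% of the list was. Each setting thus left the list share outside the interval in 1 stage and inside it in the other. For CTCF, 3 of 31 peaks were specific to each stage (9.68%, interval 3.35 to 24.9), where 9.55% of the LP list and 8.35% of the Phase 1 list were. For Med12, 12 of 40 LP peaks were specific (30%, interval 18.1 to 45.4), where 19.5% of the list was. In Phase 1, 20 of 48 Med12 peaks were (41.7%, interval 28.8 to 55.7), where 38.2% of the list was. For p300, 9 of 46 LP peaks were specific (19.6%, interval 10.7 to 33.2), where 20.7% of the list was. In Phase 1, 27 of 64 p300 peaks were (42.2%, interval 30.9 to 54.4), where 41.6% of the list was. All of these intervals include the list share. The interval of a single gene excluded the share of the entire list for Rbpj in Phase 1-specific RUNX1 and p300 and for Notch3 in LP-specific Med12. With lists of equal length none of the 3 did, at 4 of 10 for Rbpj RUNX1 (interval 16.8 to 68.7, list 22.3%), 6 of 11 for Rbpj p300 (28.0 to 78.7, list 30.9%) and 6 of 12 for Notch3 Med12 (25.4 to 74.6, list 27.4%). With a score of at least 30, Notch3 Med12 alone of the 3 did. Other genes did so under these settings, namely Notch1 in Phase 1-specific RUNX1 at equal length (8 of 15, interval 30.1 to 75.2) and Notch3 in both RUNX1 shares with a score of at least 30 (4 of 8 LP-specific, interval 21.5 to 78.5). A minimum score can itself make a peak specific, because it removes peaks of the other stage, as it did with LP RUNX1 peaks at Notch3. These counts were not adjusted for the number of shares compared. Of the 22 Phase 1-specific RUNX1 peaks, 12 overlapped Phase 1 Med12 (54.5%, interval 34.7 to 73.1), where 75% of the list did. Phase 1 p300 was overlapped by 14 (63.6%, interval 43.0 to 80.3), where 79.6% of the list did. The Med12 interval excluded the list share and the p300 interval included it. Of the same 22 peaks, 1 overlapped Phase 1 CTCF, where 6.96% of the list did.

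**Figure D5:**
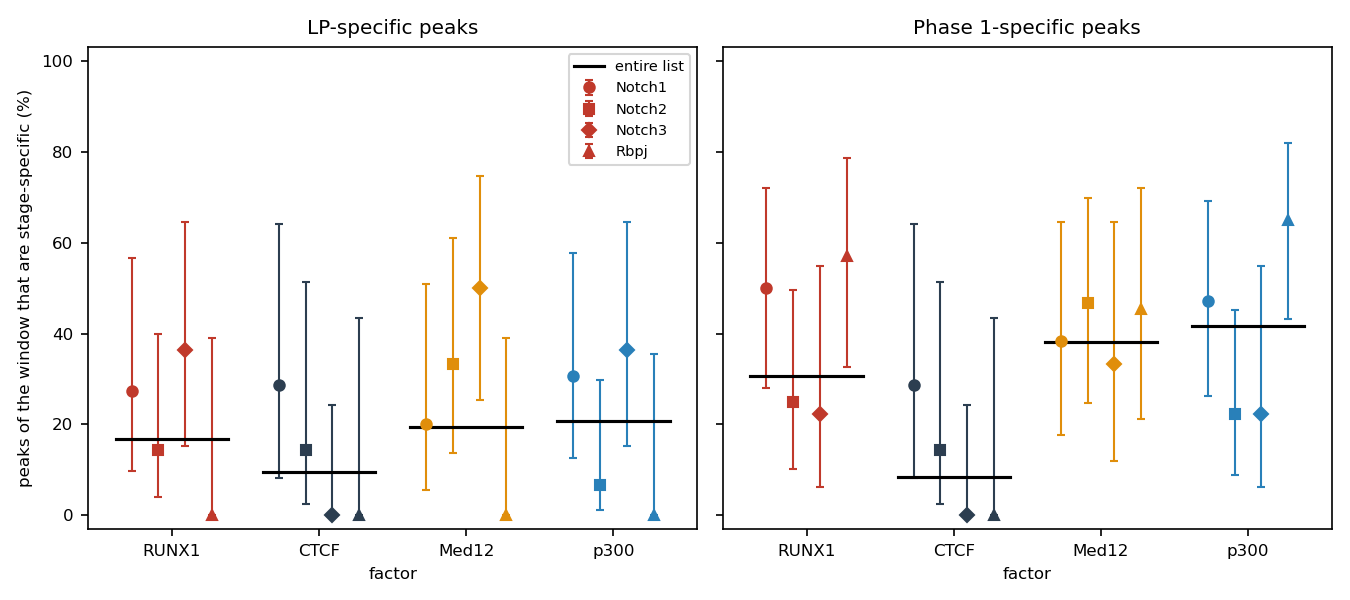
Share of the peaks in each window that were LP-specific in the left panel or Phase 1-specific in the right panel, in percent, for RUNX1, CTCF, Med12 and p300 (x axis), by gene (symbols) with 95% Wilson intervals for counting error; the black lines give the entire lists. Rbpj is at 0% in every LP-specific share and at 65% for Phase 1-specific p300.

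The guide lists asked which of these sites stayed listed when Ctcf, Cbfb or Med12 was targeted. The study describes ChIP-seq from guide-treated cells as noisier, and the RUNX1 lists were short. In LP, RUNX1 with sgCont had peaks in the Notch1 window alone. They lay at -9.71 kb (44.9), at the Sec16a promoter at 58.4 kb (43.6) and in intron 4 (17.8). With sgCTCF the sites at -9.71 kb (36.1) and at Sec16a (42.5) were found again and the intron 4 site was not, so 2 of 3 were found again (66.7%, interval 20.8 to 93.9), where 59.1% of the list was. Both sgCTCF peaks were in the sgCont list, as were 65.9% of that entire list. None of the 4 LP-specific RUNX1 peaks with CTCF at Notch3 was in the LP sgCont list, so their response to sgCTCF could not be read from these lists. From its signal tracks, the study reports weakened LP-specific RUNX1 signal around Notch3 when Ctcf was deleted in LP. The LP sgCont list held 3 of the 42 LP RUNX1 peaks of the windows and 2.98% of all LP RUNX1 peaks.

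In Phase 1, 4 of 5 sgCont RUNX1 peaks were found again with sgMed12 (80%, interval 37.6 to 96.4), where 71% of the list was. With the longer list shortened to the length of the other, 2 of 5 were (40%). In the other direction 4 of 6 sgMed12 peaks were in the sgCont list, where 52.6% of the list was. The sgCont list held 5 of the 55 Phase 1 RUNX1 peaks of the windows and 3.98% of all of them. At Notch1, the site at -9.71 kb scored 62.2 with sgCont and 40.8 with sgMed12, and the intron 1 site scored 21.4 with sgCont and was not listed with sgMed12. Intron 4 (19.1) and the Sec16a promoter (40.0) were listed with sgMed12 alone. The other 3 were found with both guides, namely the Notch3 intron 1 site (29.1 with sgCont and 17 with sgMed12), the Notch2 site at -42.24 kb (15.2 and 16.7) and the Rbpj site at -169.5 kb (16.1 and 19.7). The Notch1-IC site of Rbpj was in neither list.

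For Med12 in Phase 1, 18 of 23 sgCont peaks were found again with sgCbfb (78.3%, interval 58.1 to 90.3), where 67.8% of the list was. The sgCont list held 21 of the 48 Phase 1 Med12 peaks of the windows and 45.4% of all of them. The counts were 6 of 7 at Notch1, 4 of 5 at Notch2, 5 of 6 at Notch3 and 3 of 5 at Rbpj. The 5 that were not found again were the intron 1 site of Notch1 (51.9), the intron 9 site of Notch2 (28.8), a site over coding exon 33 of Notch3 (22.0), and the sites of Rbpj at -169.5 kb (25.7) and 15.19 kb (21.9). All 5 overlapped a Phase 1 RUNX1 peak and none a Phase 1 CTCF peak. Over the entire list, 93.6% and 13.6% of the sgCont peaks not found again did. In the other direction, 18 of 24 sgCbfb peaks were in the sgCont list, where 71.4% of the list was. The 6 that were not included, as the highest-scored of each gene, peaks at 31.32 kb of Notch1 (29.5), 12.14 kb of Notch2 (31.7), 93.39 kb of Notch3 (24.7) and 83.55 kb of Rbpj (18.6), and 3 of the 6 overlapped Phase 1 RUNX1, where 38.6% of such peaks in the entire list did. Med12 stayed listed with sgCbfb at 4 of the 5 Notch1-IC sites, which does not measure the size of its signal. From its signal tracks, the study reports that Med12 at the Notch1-IC site of Notch3 was attenuated when Cbfb was disrupted. Scores are given here for each guide list and were not compared between them. The scores with sgCont and sgCbfb were 154 and 67 at -9.71 kb of Notch1, 62.6 and 53 in its intron 4, 64.3 and 29 in Notch3 intron 1 and 87.8 and 66.4 at -1.12 kb of Rbpj.

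The promoters themselves were GC-rich. In RefSeq's 250 bases before the start (GRCm38), GC content was 66% for Notch1, 72% for Notch2 and 68.8% for Notch3, and 65.2% and 68.4% for the 2 starts listed for Rbpj, against a median of 52.4% over 32851 promoters. CpG counts were 16, 34, 17, 21 and 25, against a median of 6. None of the 5 windows held the RBPJ string, a RUNX string or the CTCF consensus, which 5.42%, 5.59% and 0.508% of promoters held. That says only that these letters are absent from these windows.

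Other genes of the pathway were counted by the same rule. Of 39 genes for ligands, Notch4, coactivators, corepressors, proteases, glycosyltransferases and turnover factors, 3 had a Phase 1 or Phase 2 Notch1-IC peak in the window (7.69%), against 3.57% of all genes. These were Dtx1, an E3 ligase of the Deltex family, with 2 peaks in each stage, Hdac1, a histone deacetylase, with 1 in Phase 2 and Dtx3, another Deltex gene, with 1 in Phase 2. An LP Notch1-IC peak lay in 8 of 39 windows (20.5%), where 11.9% of all genes had one, among them Lfng and Mfng, Fringe glycosyltransferases that tune the receptors' response to ligand, and Maml3, a Mastermind coactivator. A Phase 1-specific RUNX1 peak lay in 30 of 39 windows (76.9%), where 52.3% of all genes had one, and an LP-specific RUNX1 peak in 26 (66.7%), where 38.4% had one. A Phase 1-specific RUNX1 peak with Phase 1 Med12 lay in 26 of 39 (66.7%), where 44.1% of all genes had one. It lay in the windows of all 4 members, the most peaks among the 39 being 5 at Fbxw7, which encodes the ubiquitin ligase subunit that marks Notch1-IC for degradation. Window lengths differ between genes and were not adjusted for. All 4 members had a Phase 1-specific RUNX1 peak and 3 an LP-specific peak.

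The genes whose counts were most like a member's over the 17 lists were ranked by the summed absolute difference of log2(peaks + 1), among genes whose windows did not overlap that of the member. For Notch1 they were Plekha2 (5.72), Clic4 (5.95) and B4galnt2 (6.18), where the median over genes was 25.9. For Notch2 they were Rps6ka5 (1.06), Lrch1 (1.55) and Rbms1 (1.90), with a median of 16.4. For Notch3 they were Cep97 (1.87), Bicdl1 (2.15) and Tmem235 (2.28), with a median of 17. For Rbpj they were Il2ra (2.82), Fam207a (2.91) and Nsmce2 (2.97), with a median of 13.6. The nearest gene to Notch1 was farther away than the nearest to any other member.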

How the data were processed

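ChIP-seq peaks of 17 groups of Cas9-LP samples were analysed. Per the labels' processing notes, the authors used bcl2fastq 1.8.4, Bowtie 1.1.1 and HOMER with mm10, and per the study's methods peaks reproducible between both replicates were kept, so each list is pooled. The deposited value per peak is a normalized peak score, kept from a minimum of 15. Input samples had no list of their own and were not used here.

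Python 3.11.15, numpy 2.4.6, pandas 2.3.3, scipy 1.17.1, pysam 0.24.0 and matplotlib 3.10.9 were used. Peaks of different lists overlapped if they shared at least 1 bp. Overlap and motif code was tested on simulated data. Genes came from GENCODE M21 and promoters from RefSeq. All 5 member promoters equalled the genome at their coordinates, and no peak ran past a chromosome end. The members, gene lists and naming rule were chosen with earlier results of these data known. Named sites were those with a Notch1-IC peak, within 1 kb of a start, LP-specific RUNX1 with CTCF, the highest-scored RUNX1 peak of each class, stage-specific CTCF sites, RUNX1 peaks of guide lists and the highest-scored Med12 peak found with 1 guide alone. Other sites were named after their values were seen.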

Additional observations from a re-analysis of the deposited data

How the results depend on the processing

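Settings were changed in turn, namely the overlap needed, a minimum score, 3 other windows, promoter peaks and equal list lengths. Of 96 recomputed values for 14 results, 90 stayed within the 95% interval (counts within 1.5 times). Where few peaks were counted these intervals are wide, such as 20.8 to 93.9% for 2 of 3 peaks, so staying within them does not show stability. With a score of at least 30, the Phase 1-specific RUNX1 share was 27.3% (9 of 33), where 24.6% of the list was. At that score, 100% of LP sgCont RUNX1 peaks (2 of 2) were found again with sgCTCF and 100% of Phase 1 sgCont RUNX1 peaks (1 of 1) with sgMed12. The Notch1-IC sites with a ligand were then 2 in place of 4. With lists of equal length, the LP-specific p300 share was 34.8% (16 of 46) in place of 19.6%, where 30.9% of the list was in place of 20.7%. At equal length, 100% of LP sgCont RUNX1 peaks (2 of 2) were found again with sgCTCF. No paired analysis was possible because each list combined both replicates, and leaving out a replicate was not possible for the same reason. With equal lengths 40% of Phase 1 sgCont RUNX1 peaks (2 of 5) were found again with sgMed12, within the interval of the 80% reported. The depth of each library was not in the lists, so absence from a short list limits what the guide and Notch1-IC lists can show.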

Other observations

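RUNX and RBPJ strings were also counted over all Phase 1 RUNX1 peaks of each member, and no difference between members was tested. RUNX strings occurred in 7 of 14 Phase 1 RUNX1 windows at Rbpj, 3 of 16 at Notch1, 4 of 16 at Notch2 and 3 of 9 at Notch3, and in 25.4% of the entire list, with intervals that overlapped, from 26.8 to 73.2% at Rbpj and from 6.59 to 43.0% at Notch1. The RBPJ string occurred in 4 of 16 at Notch1, 1 of 16 at Notch2, 2 of 9 at Notch3 and 1 of 14 at Rbpj, and in 5.28% of the list. The same RBPJ string lay in the shared RUNX1 peaks of LP and Phase 1 at the Notch1-IC sites of Notch3 and Rbpj.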
